A study of Mus musculus with 45 samples.

Results

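Oxidative phosphorylation genes encode the subunits of the 4 respiratory chain complexes (I to IV) and of the ATP synthase (complex V). They were taken from the deposited TPM table (transcripts per 1e+06, a level per transcript length) by symbol: Nduf subunits, Sdha to Sdhd, Uqcr, Cox4 to Cox8, Atp5 and the protein-coding mt- genes, without rows of pseudogenes. This gave 97 genes of 30317 in the table, 84 encoded in the nucleus and 13 in mitochondrial DNA. By complex, the nuclear genes number 37 for I, 4 for II, 8 for III, 18 for IV and 17 for V, and the mt- genes 7 for I, 1 for III, 3 for IV and 2 for V. At least 1 TPM in at least 3 libraries was reached by 92 of the 97, 80 nuclear and 12 mt- genes, among 15614 genes tested in all. The 5 that did not are Cox7b2, Cox8b, Cox8c, Ndufa4l2 and mt-Atp8, which was listed at 0 in all 45 libraries. The symbols also catch 3 genes that are not subunits in the strict sense: Atp5s and Atp5sl, which act in assembly, and Cox7a2l, a factor of respiratory supercomplexes. Ndufa4 carries a complex I name, but its protein is now counted with complex IV, and it is counted here by its symbol.

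The cells were follicular B cells from spleens of B6.Blimp1GFP/+ mice, so all groups carry 1 Blimp1 allele with GFP (Blimp1, the product of Prdm1, drives plasma cell formation). They were grown on OP9, a bone marrow stromal cell line, or on OP9-DL1, which carries the Notch ligand DL1. These are called OP9 cells and DL1 cells. Cultures received LPS (a TLR4 ligand) or anti-IgM F(ab)'2 (which binds the B cell receptor), each at 10 µg/mL, for 20, 44 or 68 h, or no stimulus for 68 h, and viable cells were sorted. A further group, Blimp1+ cells, was sorted out of LPS cultures on DL1, at a time the labels do not give. Each of the 15 groups has 3 libraries, with 3.07 M to 29.1 M estimated reads each (M for 1e+06). No label says whether replicates were separate animals or cultures, so p-values measure only the spread between these samples.

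The respiratory chain passes electrons from NADH (complex I) and succinate (complex II) through complex III to oxygen at complex IV, and the proton gradient this builds drives ATP synthesis by complex V. All subunits of complex II and most of the others are made from nuclear genes and imported, whereas mitochondrial DNA encodes 13 subunits of the other complexes, transcribed as long joint RNAs that are then cut. Resting B cells are small and quiet, and activation by TLR ligands or the B cell receptor is known to raise mitochondrial mass and respiration. Nuclear subunit genes are known for promoter motifs of NRF1, of ETS factors (GABP, also called NRF2) and of YY1.

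RefSeq (GRCm38.p6) gave a promoter window, 250 bases before to 50 after the start, for 66 of the 84 nuclear genes. The NRF1 motif (GCGCA, any base, then GCGC), searched on both strands, was in 24.2% (16) of them and in 4.78% of all 27025 promoters of the table. The ETS motif CCGGAAG was in 22.7% (15) against 9.12%, and the YY1 motif AAGATGGCG in 9.09% (6) against 1.49%. None of these letter strings contains another, and a match describes letters only. The stretches printed here run from 200 to 31 bases before the start, 5′ to 3′ on the gene's strand. They are shown because the levels below turn on 2 isoform pairs of complex IV (Cox7a1 and Cox7a2, Cox6a1 and Cox6a2) and on Atp5e, and the table holds a window for these genes other than Cox6a2. Capitals mark NRF1 matches in Cox6a1 and the ETS match in Atp5e.
Cox7a1 (chr7:30183971-30184140, + strand): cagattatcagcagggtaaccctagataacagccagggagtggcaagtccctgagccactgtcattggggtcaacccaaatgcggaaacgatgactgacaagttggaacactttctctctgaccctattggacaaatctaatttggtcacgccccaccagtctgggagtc
Cox7a2 (chr9:79759884-79760053, - strand): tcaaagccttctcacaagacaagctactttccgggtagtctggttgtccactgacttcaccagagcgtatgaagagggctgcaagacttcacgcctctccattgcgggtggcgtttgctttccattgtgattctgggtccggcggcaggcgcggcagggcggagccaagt
Cox6a1 (chr5:115348989-115349158, - strand): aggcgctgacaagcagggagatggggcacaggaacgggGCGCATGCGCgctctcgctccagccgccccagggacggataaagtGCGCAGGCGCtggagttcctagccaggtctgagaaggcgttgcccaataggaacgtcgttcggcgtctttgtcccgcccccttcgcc
Atp5e (chr2:174464132-174464301, - strand): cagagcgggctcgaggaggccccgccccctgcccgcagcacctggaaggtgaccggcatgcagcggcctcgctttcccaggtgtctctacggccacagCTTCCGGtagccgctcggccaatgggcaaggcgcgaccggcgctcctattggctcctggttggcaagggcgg
Cox6a1 holds 2 NRF1 matches, whose first bases lie 162 and 117 bases before the start, and Atp5e holds its ETS match 102 bases before the start. The stretches of Cox7a1 and Cox7a2 hold no match to the 3 motifs.

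Some libraries stood apart in ways that touch the results. In 10 libraries Actb was above 10000 TPM: all 3 of DL1 cells with LPS at 20 h, all 3 of OP9 cells with anti-IgM at 20 h, and replicate 3 of unstimulated OP9, of OP9 with LPS, of DL1 with LPS and of OP9 with anti-IgM, each at 68 h. Stroma markers (15 genes, all in the table, 12 tested) made up 0.0966% to 1.54% of TPM in unstimulated OP9 cells and at most 0.0446% in every other group. B cell markers (8 genes, none at 0 in any library) made up 0.208% to 1.24% there and 3.07% to 4% in unstimulated DL1 cells. In such bulk samples, fewer cells of a type and less RNA per cell cannot be told apart. TPM were scaled by a size factor per library (scaled TPM), and fold changes are on the log2(scaled TPM + 1) scale, which understates changes of low genes. A gene was called at a Benjamini-Hochberg adjusted p under 0.05 in a limma model of all 45 libraries.

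Nuclear and mitochondrial genes differed in level and in how they varied. Some mt- genes were the most abundant: mt-Atp6 had a median over libraries of 2687 scaled TPM and mt-Co3 2268. Others were lower, with mt-Nd2 at 338.2, mt-Nd6 at 274.1, mt-Nd5 at 229 and mt-Nd3, the lowest tested, at 111.4. Among nuclear genes the highest of each complex were Ndufb8 (1023, a membrane-arm subunit of complex I), Sdhb (450.3, the iron-sulphur subunit of complex II), Uqcrq (1087, complex III), Cox7c (1042, complex IV) and Atp5b (1378, the catalytic beta subunit of complex V). The lowest were Ndufa4 (23.19), Sdhc (84.65), Uqcrc2 (137.9), Cox4i2 (0) and Atp5s (18.27). The summed level of the nuclear genes ran from 15158 to 79109 scaled TPM, and that of the mt- genes from 6900 to 70984. With anti-IgM on OP9 the mt- sum was above the nuclear sum in replicate 1 at 20 h and replicate 3 at 68 h. In every other library it was below.

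The balance of mt- to nuclear RNA differed between groups. In unstimulated cells the log2 ratio of the sums was -0.51, -0.51 and -0.38 on OP9 and -0.88, -0.67 and -0.59 on DL1, so the groups did not overlap. By group median it was lowest with LPS at 20 h on DL1, at -2.49 (-2.86 to -2.37), where all 3 libraries had high Actb. In OP9 cells with LPS at 20 h it ranged from -3.35 in replicate 3 to -1.28 in replicate 2. With LPS at 44 h, where no library had high Actb, the ratio was -2.38 to -1.61 on DL1 and -2.59 to -1.31 on OP9. With LPS at 68 h it was -1.15, -1.09 and -0.89 on DL1 and -2.05 to -1.21 on OP9. With anti-IgM at 68 h it was -0.30 to 0.08 on OP9 and -1.77 to -0.92 on DL1. In Blimp1+ cells it was -1.53 to -1.26. With the difference of median log2 levels per gene in place of the sums, group means ran from -0.03 (DL1 with LPS at 20 h) to 2.12 (OP9 with anti-IgM at 68 h). The latter mean holds replicate 3, of high Actb, at 2.957, and 1.662 and 1.74 in the other libraries. By group median unstimulated OP9 was the highest, at 1.78. By that measure the unstimulated groups overlapped, at 1.68, 1.78 and 2.57 on OP9 and 1.31, 1.75 and 1.54 on DL1.

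**Figure D1:**
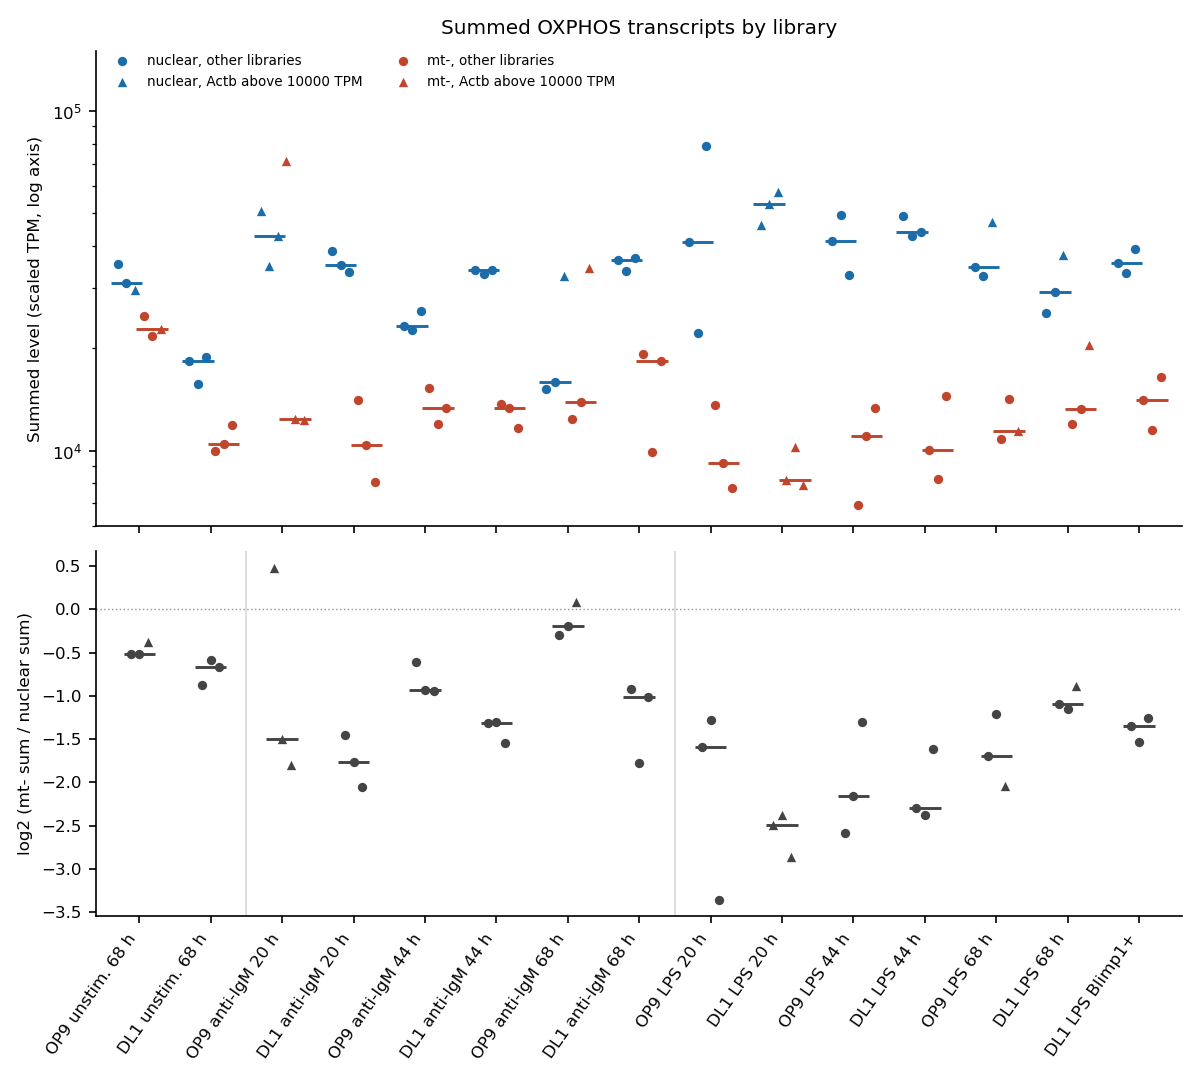
Summed scaled TPM of the nuclear and the mt- genes on a log axis (top) and the log2 ratio of the mt- to the nuclear sum (bottom) in each of the 45 libraries by group; triangles are the 10 libraries with Actb above 10000 TPM and bars are medians. The nuclear sums of unstimulated DL1 cells (15735 to 18853) lie below those of unstimulated OP9 cells (29738 to 35349) after scaling. In TPM as deposited these groups overlap, with nuclear genes at 2.23%, 2.26% and 2.52% on DL1 and 3.75%, 3.52% and 1.97% on OP9.

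Ranked by group means, 35 of 80 nuclear genes were lowest in unstimulated DL1 cells, 21 in OP9 cells with anti-IgM at 68 h and 11 in unstimulated OP9 cells. They were highest with LPS: 28 in DL1 cells at 20 h, 13 in DL1 cells at 44 h and 9 in OP9 cells at 68 h. Of the 12 mt- genes, 8 were highest in OP9 cells with anti-IgM at 20 h, 6 were lowest in DL1 cells with LPS at 20 h and 4 in OP9 cells with LPS at 44 h. The 20 h groups named here hold only libraries of high Actb. Their ranks, that of the 28 nuclear genes included, therefore cannot be told apart from that class. Where the 8 mt- genes were highest, the mt- sum was 70984 scaled TPM in replicate 1, against 12400 and 12310 in replicates 2 and 3. Ranks without replicate 1 were not computed. Over the 18 planned comparisons 68 nuclear and 8 mt- genes were called at least once. Those never called were 12 nuclear genes and mt-Co1, mt-Co3, mt-Cytb and mt-Nd4l. The share of all genes called at least once was not computed, so these counts cannot be set against it. The 68 include Cox4i2, whose 1 call is no result, as given below. Among the steadiest nuclear genes across the 15 group means were Ndufs3, Sdha and Ndufs4 (SD of 0.33, 0.34 and 0.35 on the log2 scale), of which Ndufs3 and Ndufs4 belong to the peripheral arm of complex I. The most variable were Cox6a2 (2.34), Cox7a1 (2.00), Ndufa4 (1.94) and Cox6b2 (1.00), all in complex IV by protein.

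**Figure D2:**
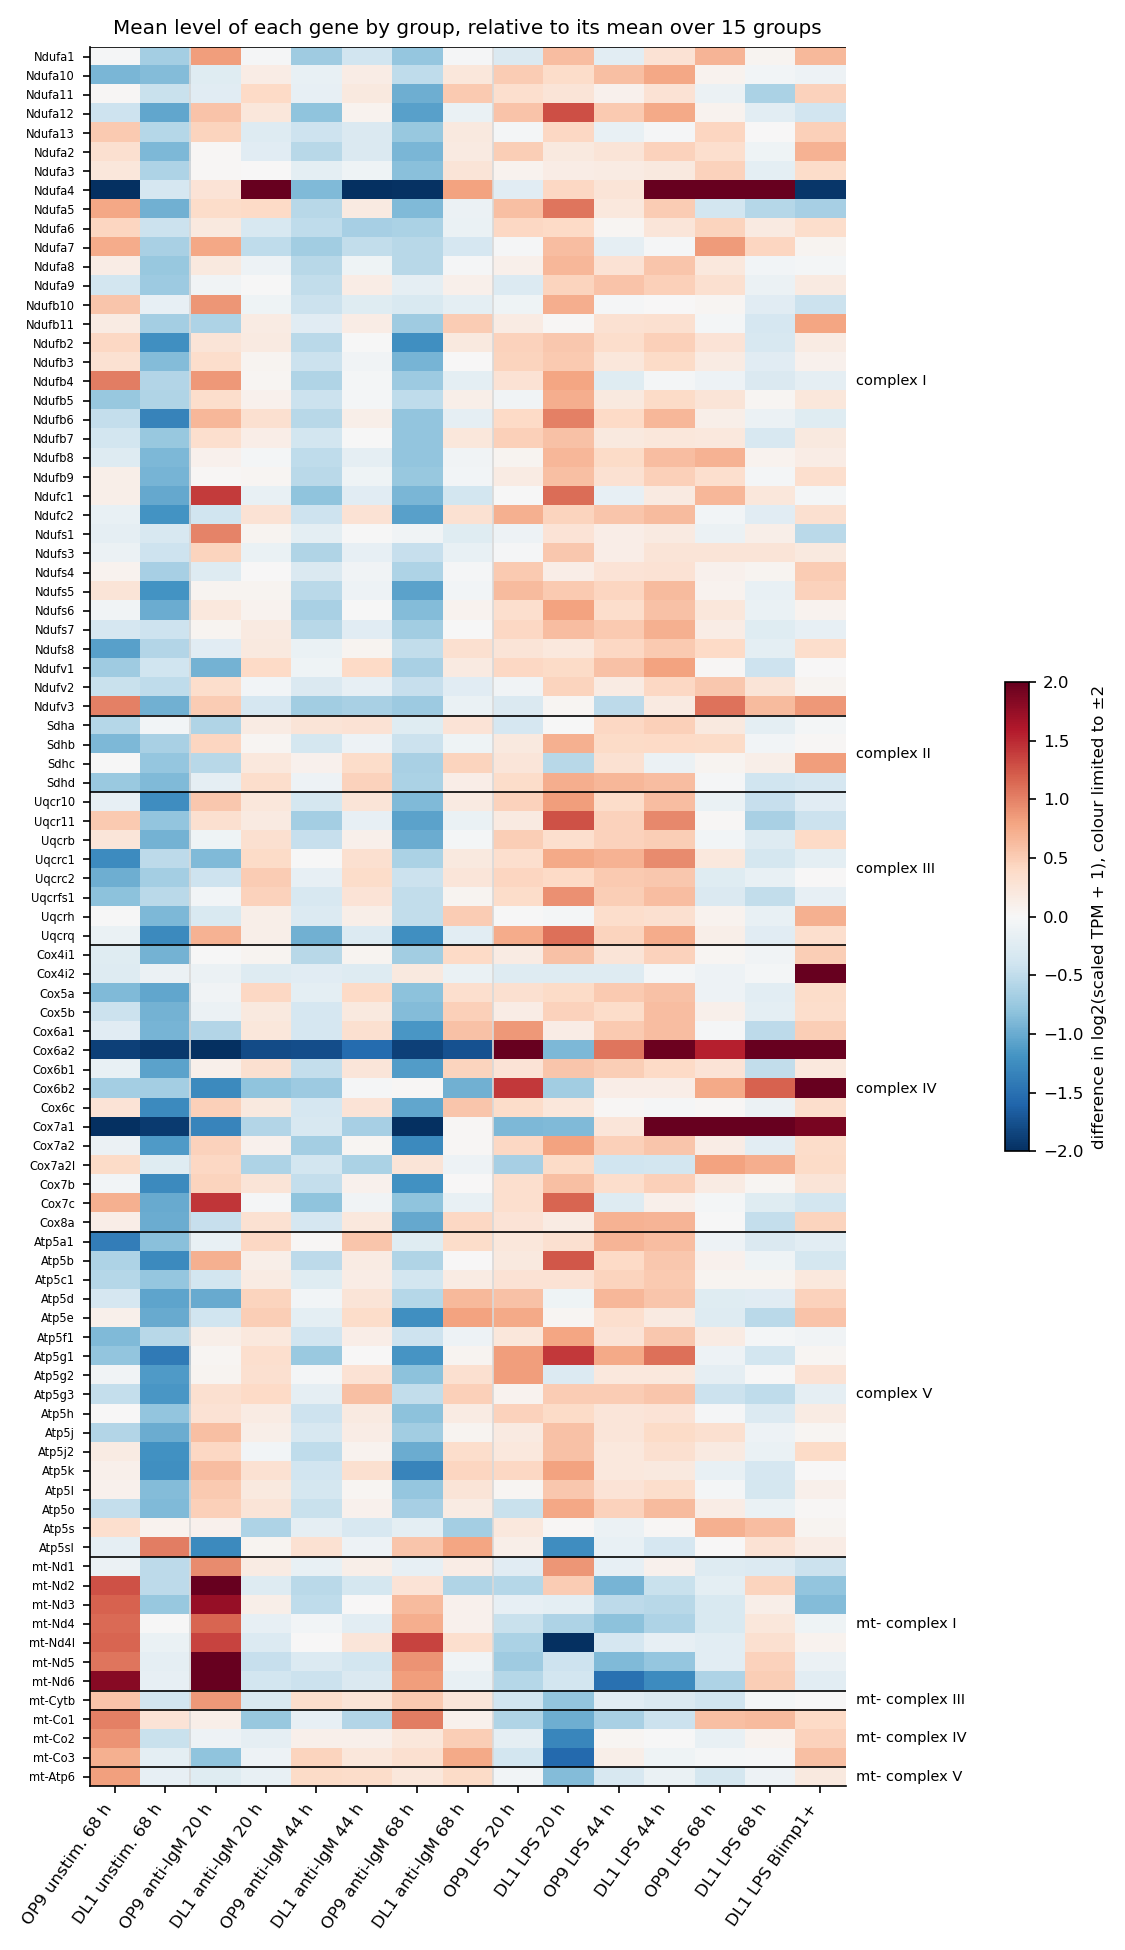
Mean log2(scaled TPM + 1) of 91 of the 92 tested genes (rows, by complex, nuclear above mt-) in the 15 groups (columns), each relative to the mean of the gene over the groups; the colour scale ends at -2 and 2. Cox6a2 and Cox7a1 are high in most columns with LPS, though not in DL1 cells at 20 h, nor, for Cox7a1, in OP9 cells at 20 h, and the unstimulated DL1 column is low for most nuclear genes.

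Without a stimulus, many nuclear genes were lower on DL1 than on OP9. Of 80 nuclear genes 29 fell and none rose, and 3 of 12 mt- genes fell (mt-Co2, mt-Nd3 and mt-Nd4), while 26.5% of all genes were called and 17.6% fell. The members called are 34.8% of the 92 tested. The median log2 fold change was -0.71 for nuclear genes, -1.20 for mt- genes and -0.19 for all genes. Complex I gave 14 of its 36 tested nuclear genes, III 4 of 8, IV 6 of 15, V 5 of 17 and II none of 4.

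Ndufv3, an accessory subunit of the NADH-binding module of complex I, was at 669, 560.2 and 560.7 scaled TPM in OP9 cells and at 190.1, 131.7 and 134.8 in DL1 cells. The groups stood well apart (log2 fold change -1.98, SE 0.43, limma adjusted p 0.000535). Ndufb4, in the membrane arm, was at 260.4, 251.1 and 266.1 against 73.08, 90.57 and 89.68 (-1.61, SE 0.44, adjusted p 0.00487). Ndufa5 was at 912.5, 782.8 and 405.8 against 198.4, 175.1 and 227.2, again without overlap (-1.73, SE 0.39, adjusted p 0.000791). Sdha, the flavoprotein of complex II, was at 181, 173 and 94.34 in OP9 cells and at 185.9, 207.6 and 220 in DL1 cells, which was not called (0.50, SE 0.38, adjusted p 0.359).
mt-Nd4, a proton-pumping subunit of complex I, was at 937.1, 802.8 and 907.2 on OP9 and at 362.6, 414.1 and 412.9 on DL1. The groups did not overlap, but the call (log2 fold change -1.15, SE 0.44, adjusted p 0.0472) was lost without any of the 6 libraries (adjusted p up to 0.117) and with TPM as deposited (-0.63, adjusted p 0.144). The call of mt-Co2 (-1.33, adjusted p 0.035) was lost with TPM as deposited (-0.81, adjusted p 0.161), quantile normalization and the authors' log2 table, and without replicates 1 or 2 of either culture (adjusted p of 0.0738 to 0.122). That of mt-Nd3 (-1.95, adjusted p 0.0467) was lost with the authors' log2 table, a pseudocount of 0.1 or no filter, and without any 1 library but OP9 replicate 2 (adjusted p of 0.0553 to 0.121).
The 6 libraries of this comparison differ in more than these genes: 12 of 12 tested stroma markers fell and 6 of 8 B cell markers rose from OP9 to DL1. Their part in the result was not tested. Without the libraries of high Actb 47 nuclear genes fell and 1 rose, 10 mt- genes fell, and 41.8% of all genes were called. With TPM as deposited 13 genes were called and the median of all genes moved from -0.19 to 0.15. Leaving out OP9 replicate 1 left 8 calls, DL1 replicate 2 left 16 and DL1 replicate 1 left 19.

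With anti-IgM at 68 h the direction was the opposite: nuclear genes were higher on DL1. Of 80, 13 rose and none fell, where 1.73% of all genes were called and 1.11% rose. They are 7 of 15 in complex IV (Cox4i1, Cox5a, Cox5b, Cox6a1, Cox6b1, Cox6c and Cox8a), 3 of 17 in V (Atp5e, Atp5g1 and Atp5g3) and 3 of 36 in I (Ndufa11, Ndufb11 and Ndufc2), with none in II or III. The nuclear median was 0.82, with 75 of 80 above 0, and that of all genes -0.12. No mt- gene was called (1 at an unadjusted p under 0.05), and their median was -0.59.

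Atp5e, the epsilon subunit of the rotor of complex V, was at 898.5, 1173 and 1018 scaled TPM in DL1 cells and at 239.7, 230.7 and 287.2 in OP9 cells. All DL1 libraries lay far above all OP9 libraries (log2 fold change 2.02, SE 0.41, limma adjusted p 0.00792).
Cox6a1, the common form of a regulatory subunit of complex IV, was at 768.7, 740 and 827.7 on DL1 and at 237.7, 229.5 and 228.1 on OP9 (1.74, SE 0.47, adjusted p 0.047). The OP9 library with high Actb, replicate 3, was close to the others here, and the call was lost without any 1 of the 6 libraries (limma adjusted p of 0.0621 to 0.148).
Cox6c was at 1002, 1146 and 1279 on DL1 and at 348.9, 230.1 and 662.7 on OP9, where replicate 3, the library with high Actb, was the highest (1.59, SE 0.44, adjusted p 0.0492).
Cox6b1, which binds at the cytochrome c side of complex IV, was at 748.9, 798.1 and 792.3 against 223.4, 215.1 and 374.3 (1.57, SE 0.35, adjusted p 0.0171), with no overlap.
Ndufa11, a membrane-arm subunit at lower level, was at 57.62, 65.91 and 57.16 against 22.39, 22.14 and 17.75 (adjusted p 0.0314).
Among the 39 nuclear genes whose DL1 libraries all lay above the OP9 ones, against 11.4% of all genes, the OP9 library nearest to DL1 was replicate 3 in 26, replicate 2 in 7 and replicate 1 in 6. Over all nuclear genes the sum was 32604 in replicate 3 and 15158 and 15949 in the other OP9 libraries, against 33835 to 37018 on DL1. This order depends on the scaling: the size factor was 0.442 in replicate 3 and 1.4 and 1.32 in the other OP9 libraries. In TPM as deposited the nuclear genes made up 1.44% in replicate 3, 2.12% and 2.1% in the others and 3.65% to 3.92% on DL1. Replicate 3 was then the farthest from DL1.

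The count of 13 depends on single libraries. Without OP9 replicate 3 it was 26, without replicates 1 or 2 of OP9 7 and 8, and without DL1 replicates 1, 2 or 3 only 2, 1 and 1. Without all libraries of high Actb in the fit 47 nuclear genes rose and none fell, against 5.87% called of all genes, with a median of 1.26 for nuclear and 0.21 for mt- genes. With only the 2 groups in the fit limma called none, and none of all genes. Of 12 tested stroma markers and 8 B cell markers limma called none. RefSeq promoter windows were found for 11 of the 13 genes, and 6 (54.5%) held at least 1 of the 3 motifs, against 48.5% of the 66 nuclear members with a window and 14% of all promoters.

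At 44 h with anti-IgM the same comparison gave no call by limma among the members, where 0.897% of all genes were called; 17 nuclear genes and no mt- gene had an unadjusted p under 0.05. Nonetheless 73 of 80 nuclear genes were above 0 (median 0.46), and in 60 of 80 the 3 DL1 libraries all lay above the 3 OP9 libraries, against 16.6% of all genes. Atp5g1, one of 3 genes for the c ring of complex V, was at 695.8, 620.2 and 672.6 on DL1 and at 393.6, 361.2 and 427.2 on OP9 (log2 fold change 0.75, SE 0.29, adjusted p 0.325). Ndufa12 was at 602.9, 695.7 and 694.9 against 336.7, 353.7 and 396.8 (0.87, SE 0.31, adjusted p 0.264). Both genes had separate groups and neither was called. Fitted with these 2 groups only, 55 nuclear genes rose and 1 fell, where 16% of all genes were called and 9.26% rose. Without the libraries of high Actb (none of them in this comparison) 9 rose and none fell, where 5.96% of all genes were called and 3.31% rose. The mt- genes had a median of 0.00, with 6 of 12 above 0.

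At 20 h with anti-IgM all OP9 libraries had high Actb, so that class and the culture cannot be told apart. Of the nuclear genes 7 rose and 1 fell on DL1, and 4 mt- genes fell, 13% of the 92 members, where 20.5% of all genes were called. The nuclear median was -0.01 (0.49 with TPM as deposited) and the mt- median -1.25. Atp5d, the delta subunit of the complex V rotor, was at 542.8, 489.9 and 349.9 on DL1 and at 144.4, 168.2 and 183.1 on OP9 (log2 fold change 1.46, SE 0.34, limma adjusted p 0.00527). Uqcrc2, a core protein of complex III, was at 187.5, 195 and 180.9 against 94.57, 84.34 and 121.4 (0.92, SE 0.21, adjusted p 0.00441). Both were higher in every DL1 library. Cox7a2l went the other way, at 141.3, 127.5 and 142.1 on DL1 and 337.6, 254.8 and 259.6 on OP9 (-1.04, SE 0.27, adjusted p 0.00957). With LPS at 20 h, where the DL1 libraries are the ones with high Actb, Cox7a2l was at 223.1, 308.7 and 300.9 on DL1 and at 145.3, 117 and 135.8 on OP9 (1.05, SE 0.27, adjusted p 0.0109), so in both it was higher in the group of high Actb.

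Few members were called between the cultures with LPS. At 20 h 5 nuclear genes rose and 2 fell and mt-Nd1 rose. They are 8.7% of the 92 members, where 8.81% of all genes were called, a share near the background. All DL1 libraries and no OP9 library had high Actb there, so that class and the culture cannot be told apart. With only these 2 groups in the fit limma called no member, where 1.29% of all genes were called. At 44 h limma called none of the members (0.16% of all genes; 1 nuclear gene at an unadjusted p under 0.05), and at 68 h it called Cox6a2 alone (0.064% of all genes). The nuclear medians were 0.33, 0.13 and -0.27 at 20, 44 and 68 h. Atp5o, a stalk subunit of complex V, was at 809.4, 932.8 and 1077 on DL1 and at 645, 319.5 and 307.3 on OP9 at 20 h (log2 fold change 1.22, SE 0.26, limma adjusted p 0.0022), with OP9 replicate 1 nearest to DL1. The difference between the DL1 effect with LPS and with anti-IgM at 44 h gave no call among the members by limma (0.0833% of all genes; 2 nuclear genes at an unadjusted p under 0.05). At 68 h it gave 1, Cox6b1 (0.199% of all genes), and the difference between the DL1 effect with anti-IgM and without stimulus gave 48 nuclear genes, all higher with anti-IgM (15.6% of all genes).

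**Figure D3:**
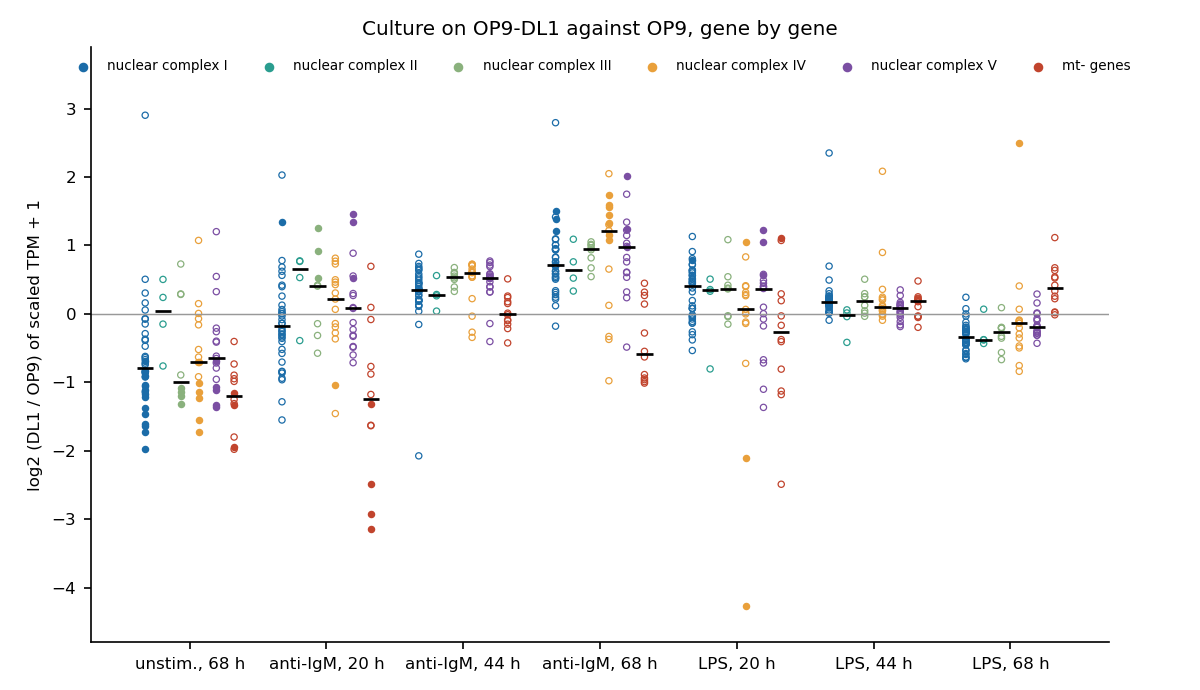
log2 fold change of DL1 over OP9 for each tested gene (points; filled where called) in the 7 comparisons of the stromal cultures, nuclear and mt- genes apart; black bars are medians. Nuclear medians are -0.71 without stimulus, 0.46 after 44 h of anti-IgM and 0.82 after 68 h.

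Stimulated and unstimulated cells were compared at 68 h within each culture; both stimuli share the unstimulated libraries of that culture. In DL1 cells nuclear genes rose with both: 36 of 80 rose and none fell with anti-IgM, where 9.52% of all genes were called and 6.07% rose, and 18 rose and none fell with LPS, where 8.1% were called and 5.54% rose. The 36 are 11 of 36 in complex I, 2 of 4 in II, 4 of 8 in III, 8 of 15 in IV and 11 of 17 in V. Nuclear medians were 0.94 with anti-IgM and 0.75 with LPS. No mt- gene was called in either (2 and 0 at an unadjusted p under 0.05). Their medians were 0.51 and 0.40, and -0.06 and -0.25 after quantile normalization.

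Atp5g3, another c ring gene, was at 796.8, 666.1 and 832.6 scaled TPM in DL1 cells with anti-IgM and at 253.8, 216.4 and 266.2 without a stimulus (log2 fold change 1.64, SE 0.25, limma adjusted p 2.35e-05). Cox6c was at 1002, 1146 and 1279 against 258.8, 308.6 and 417.8 (1.82, SE 0.44, adjusted p 0.00471). Atp5d was at 469, 583.9 and 520.8 against 107.6, 173.8 and 215.7 (1.71, SE 0.34, adjusted p 0.000637). In all 3 genes every stimulated library was more than any unstimulated one. The count of 36 was 17 with TPM as deposited, 19 after quantile normalization, 20 without unstimulated replicate 2 and 22 without anti-IgM replicate 3. For LPS the count of 18 was 4 with TPM as deposited, 3 without unstimulated replicate 2, 7 without LPS replicate 2 and 10 without LPS replicate 3.

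In OP9 cells the same comparisons start from the group that holds stroma markers. With LPS 18 nuclear genes rose and 2 fell, and mt-Atp6 and mt-Nd4 fell, 23.9% of the 92 members, where 30.5% of all genes were called. With anti-IgM 2 rose and 26 fell, where 23.9% were called and 15.5% fell. The 2 that rose are Atp5a1, the alpha subunit of complex V, and Atp5f1, a stalk subunit. Atp5a1 was at 241.7, 307.8 and 175.8 without a stimulus, at 554.8, 490.6 and 526.2 with anti-IgM (log2 fold change 1.15, SE 0.22, limma adjusted p 0.000117) and at 578.8, 691.5 and 481.7 with LPS (1.29, SE 0.22, adjusted p 1.63e-05). Ndufs8, an iron-sulphur subunit of complex I, was at 158.8, 199.2 and 172.6 without a stimulus and at 546.5, 473.6 and 463.2 with LPS (1.48, SE 0.26, adjusted p 2.08e-05). Both genes had separate groups. The count of 28 with anti-IgM was 44 without anti-IgM replicate 3, 8 without unstimulated replicate 1, and 12 and 10 without anti-IgM replicates 1 and 2.

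LPS gave more nuclear RNA of these genes than anti-IgM at 44 h. On OP9 20 nuclear genes rose and none fell, where 8.63% of all genes were called and 4.9% rose, and in 55 of 80 the LPS libraries all lay above the anti-IgM ones, against 21.5% of all genes. On DL1 3 genes rose (Atp5g1, Cox6a2 and Cox7a1) and none fell. These are 3.26% of the 92 members, where 2.91% of all genes were called, a share near the background. In 51 of 80 nuclear genes the LPS libraries all lay above the anti-IgM ones, against 17.7% of all genes. The nuclear medians were 0.69 and 0.36. The mt- genes gave no call in either culture (0 at an unadjusted p under 0.05 in both), with medians of -0.44 and -0.41 and 0 and 1 of 12 above 0. Atp5g1 was at 1233, 1304 and 845.6 with LPS on OP9 against 393.6, 361.2 and 427.2 with anti-IgM (log2 fold change 1.49, SE 0.29, limma adjusted p 0.000439). Ndufa12 was at 995, 1120 and 667.4 against 336.7, 353.7 and 396.8 (1.32, SE 0.31, adjusted p 0.00469). LPS replicate 3 was the lowest of its group for both, and still above all anti-IgM libraries. The count of 20 on OP9 was 8 and 7 without anti-IgM replicates 1 and 2, 9 and 10 without LPS replicates 1 and 2, and 5 with TPM as deposited. On DL1 it was 1 without anti-IgM replicate 2 or 3.

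Few members were called between times. From 20 to 44 h with LPS on OP9 Cox6a2 fell (log2 fold change -2.31, SE 0.45, limma adjusted p 0.00264) and no other member was called (1.74% of all genes), and with anti-IgM on DL1 none from 20 to 44 h (0.0576%) or from 44 to 68 h (0.179%), with 1 nuclear gene at an unadjusted p under 0.05 in each of these 2. The Cox6a2 call was lost with the authors' log2 table (limma adjusted p 0.238), with a pseudocount of 0.1 (0.243) and with only the 2 groups in the fit (0.418).

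The complex IV isoforms Cox6a2 and Cox7a1, known from heart and skeletal muscle, were low without LPS. Cox6a2 was at most 1.551 scaled TPM in every unstimulated and anti-IgM library. With LPS at 68 h it was at 67.05, 75.55 and 86.34 on DL1 and at 10.4, 9.96 and 19.48 on OP9. All DL1 libraries were the higher (log2 fold change 2.49, SE 0.45, limma adjusted p 0.00945). At 44 h it was at 20.78, 17.01 and 14.38 on DL1 and at 10.09, 11.16 and 5.912 on OP9, which was not called (0.90, SE 0.45, adjusted p 1). At 20 h the order was reversed, at 2.515, 0.6547 and 1.698 on DL1, the libraries of high Actb, and at 65.66, 15.92 and 99.98 on OP9 (-4.28, SE 0.45, adjusted p 5.25e-07). Blimp1+ cells had 51.79, 57.01 and 61.6. At 68 h the call was lost without DL1 replicate 3, OP9 replicate 1 or OP9 replicate 2 (adjusted p of 0.0523, 0.107 and 0.122), and with the authors' log2 table (2.43, adjusted p 1), but the difference stayed between 2.33 and 2.58.

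Cox7a1 rose with LPS at 68 h as well. On OP9 it was listed at 0 in all 3 unstimulated libraries and was at 124.5, 118.7 and 131.7 with LPS at 68 h (limma adjusted p 6.77e-10). On DL1 it was at 0, 1.218 and 3.205 without a stimulus and at 43.11, 76.4 and 101.1 with LPS (log2 fold change 5.06, SE 0.69, adjusted p 3.41e-06). Anti-IgM libraries held at most 9.179. At 44 h with LPS it was at 36.88, 39.09 and 40.39 on DL1 and at 7.323, 12.69 and 6.235 on OP9, and at 68 h OP9 was the higher; neither difference was called (2.08 and -0.84, SE 0.69 for both, adjusted p 1 at 68 h and 0.721 at 44 h). Cox7a1 was 19.3% to 26.3% of Cox7a1 and Cox7a2 RNA together on OP9 at 68 h, 14.1% to 19.9% on DL1 at 68 h, 5.09% to 7.76% on DL1 at 44 h and 1.41% to 1.76% on OP9 at 44 h. At 20 h with LPS its share was 0% to 1.48% on OP9 and 0.413% to 0.611% on DL1. With anti-IgM on OP9 at 44 h it was 1.83% to 2.70%, above that with LPS. Cox6a2 was 13.9% to 24.8% of Cox6a1 and Cox6a2 together on DL1 at 68 h and 1.65% to 4.88% on OP9 at 68 h. The common forms Cox7a2 and Cox6a1 were thus the larger part in every group. 

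**Figure D4:**
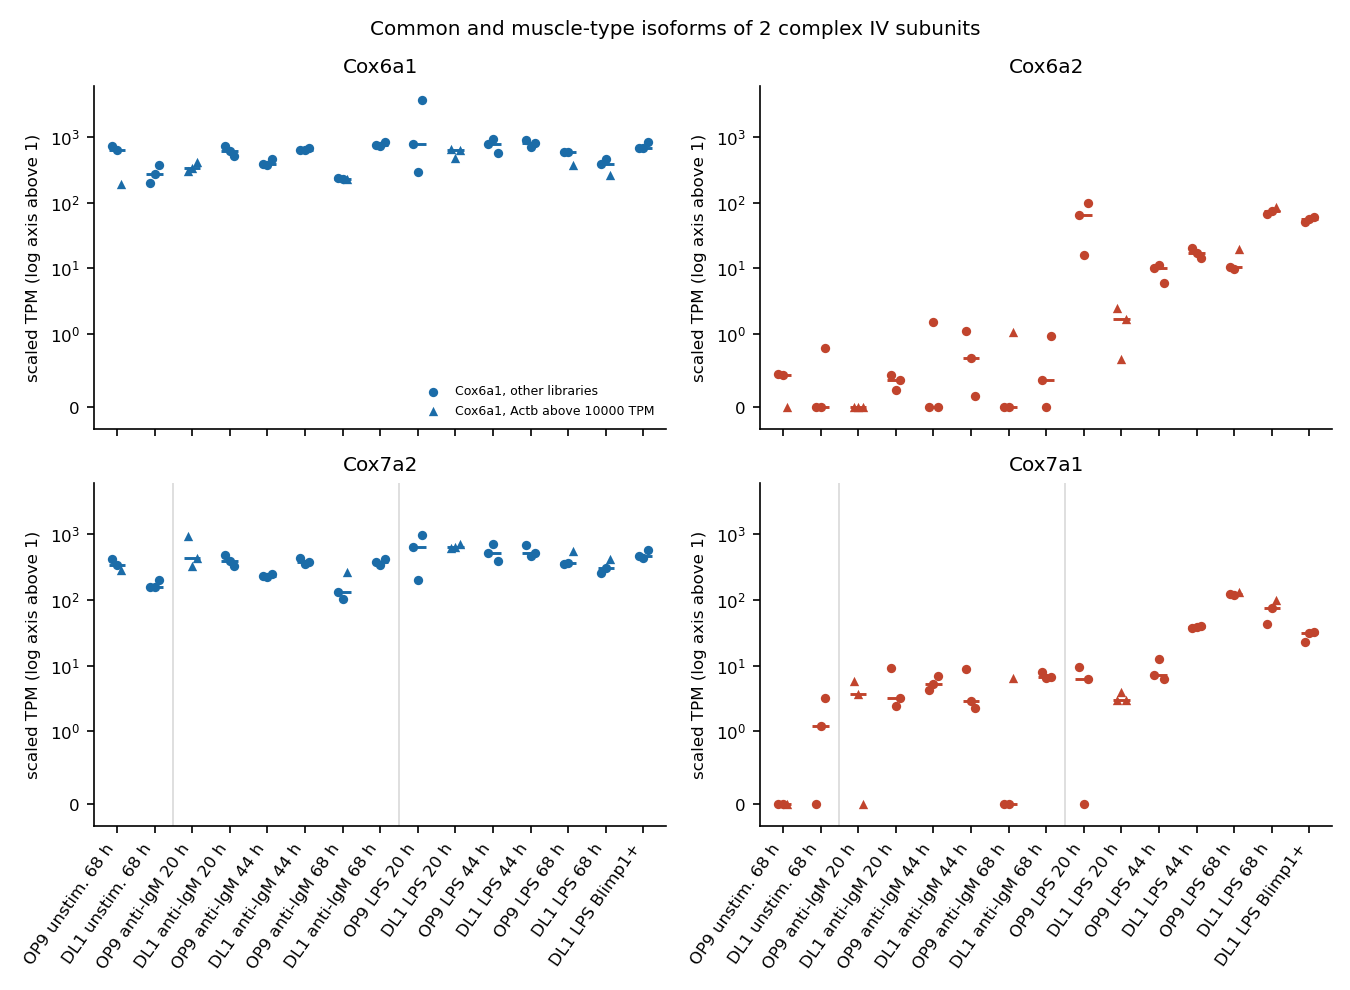
Scaled TPM of Cox6a1, Cox6a2, Cox7a2 and Cox7a1 in each library by group, on an axis that is logarithmic above 1; triangles are the 10 libraries with Actb above 10000 TPM and bars are medians. Cox6a2 reaches 67.05 to 86.34 in DL1 cells with LPS at 68 h and Cox7a1 118.7 to 131.7 in OP9 cells with LPS at 68 h, while without LPS they stay at or below 1.551 and 9.179.

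Ndufa4 was scattered within groups, from 0 to 103.1 scaled TPM over the libraries, and its 1 call (LPS against no stimulus on OP9, adjusted p 0.0101 by limma) rests on means of 69.49 and 0.2633. Cox4i2 and Cox6b2 are alternative forms of Cox4i1 and Cox6b1. Cox4i2 was at 3.612, 4.309 and 5.29 in Blimp1+ cells and at most 0.9736 in any other library; it passed the filter on low values only through the Blimp1+ libraries. Cox6b2 was at 9.743, 9.994 and 11.31 in Blimp1+ cells, though OP9 cells with LPS at 20 h reached 26.03 in 1 library.

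Blimp1+ cells carried less RNA of nuclear subunits than DL1 cells with LPS at 44 h. Of 80 nuclear genes 11 fell and 3 were called higher (Cox4i2, Cox6a2 and Cox6b2), where 12% of all genes were called and 5.03% fell. Cox4i2 reached 1 TPM in the 3 Blimp1+ libraries alone and so was tested only through them, which fixes its direction here, and its call is no result. Of the 80, 35 lay below without overlap against 18.9% of all genes. No mt- gene was called (1 at an unadjusted p under 0.05), and medians were -0.22 for nuclear and 0.39 for mt- genes. Atp5g1 was at 668.3, 636.9 and 712.4 in Blimp1+ cells and at 1505, 1426 and 1314 at 44 h (log2 fold change -1.07, SE 0.29, limma adjusted p 0.00916). Uqcr11, of complex III, was at 613.2, 554 and 657.5 against 1568, 1958 and 1303 (-1.39, SE 0.38, adjusted p 0.0122), and Sdhd, a membrane anchor of complex II, at 240.8, 219.1 and 244.7 against 447.4, 462.3 and 463.8 (-0.96, adjusted p 0.00946). None of the 3 genes overlapped. The time of the Blimp1+ sort is not given, and against DL1 cells with LPS at 68 h only 2 members were called; there Atp5g1 (0.40), Uqcr11 (0.23) and Sdhd (0.06) were on the other side of 0, as was Cox6a2 (-0.42). The count of 14 was 9 and 8 without replicates 1 and 3 at 44 h, and 8 and 9 without Blimp1+ replicates 2 and 3. Plasma cell markers (6 symbols, 5 of them in the table) made up 0.283% to 0.318% of TPM in the Blimp1+ libraries and 0.0188% to 0.0201% at 44 h, and 4 of 5 rose. B cell markers made up 1.61% to 1.77% against 0.6% to 0.652%, with 4 of 8 higher by limma, and 1 of 12 tested stroma markers rose. Their part in the result was not tested.

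The mt- genes did not move as 1 block, although the plus strand of mitochondrial DNA carries most of them in 1 long transcript. In the 10 libraries of high Actb mt-Nd2 had a median of 1138 scaled TPM (545 to 20360) and in the other 35 of 323 (152 to 849). For mt-Nd6 these were 980 (190 to 13470) and 249 (51.8 to 735). mt-Co3 went the other way, with 1024 (508 to 2880) in the 10 and 2458 (1080 to 4738) in the 35, as did mt-Atp6 with 1601 (1132 to 3594) and 2790 (1080 to 6458).
The highest library of all was OP9 with anti-IgM at 20 h, replicate 1, where mt-Nd2 was at 20360 and mt-Nd6 at 13470; its replicates 2 and 3 had 1013 and 1264 for mt-Nd2 and 807.7 and 1152 for mt-Nd6. In the other 68 h groups with 1 library of high Actb, replicate 3 was that library and the highest: mt-Nd6 was at 734.7, 618.4 and 3809 in unstimulated OP9 cells, at 275.2, 215.7 and 3799 in OP9 cells with anti-IgM, at 150.6, 210 and 3488 in DL1 cells with LPS and at 121.3, 132 and 675.1 in OP9 cells with LPS.
Of the 4 mt- genes that fell on DL1 with anti-IgM at 20 h, mt-Nd2 (log2 fold change -2.93, SE 0.83, limma adjusted p 0.0155) and mt-Nd6 (-3.14, SE 0.96, adjusted p 0.0223) were no longer called without OP9 replicate 1 (-1.54 and -1.87, adjusted p 0.21 and 0.228). The same holds for mt-Nd5 (-2.49 to -1.48, adjusted p 0.12) and mt-Nd4 (-1.32 to -0.52, adjusted p 0.418). The count of 12 members was then 2, and it was 6, 5 and 5 without DL1 replicates 1, 2 and 3.
In the GRCm38 annotation mt-Nd6 lies on the minus strand of chrM at 13552 to 14070 and overlaps the end of mt-Nd5 (11742 to 13565). Its RNA is known to carry no or few poly(A) tails, whereas these libraries are from polyA RNA. The kit does not mark strand and the use of strand in counting is not given in the sources used here, so reads of mt-Nd6 and those opposite to it cannot be told apart. mt-Atp8 (7766 to 7969), listed at 0 throughout, overlaps mt-Atp6 (7927 to 8607), and mt-Nd4l (9877 to 10173) overlaps mt-Nd4 (10167 to 11544), so values of these pairs depend on how reads were shared.

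**Figure D5:**
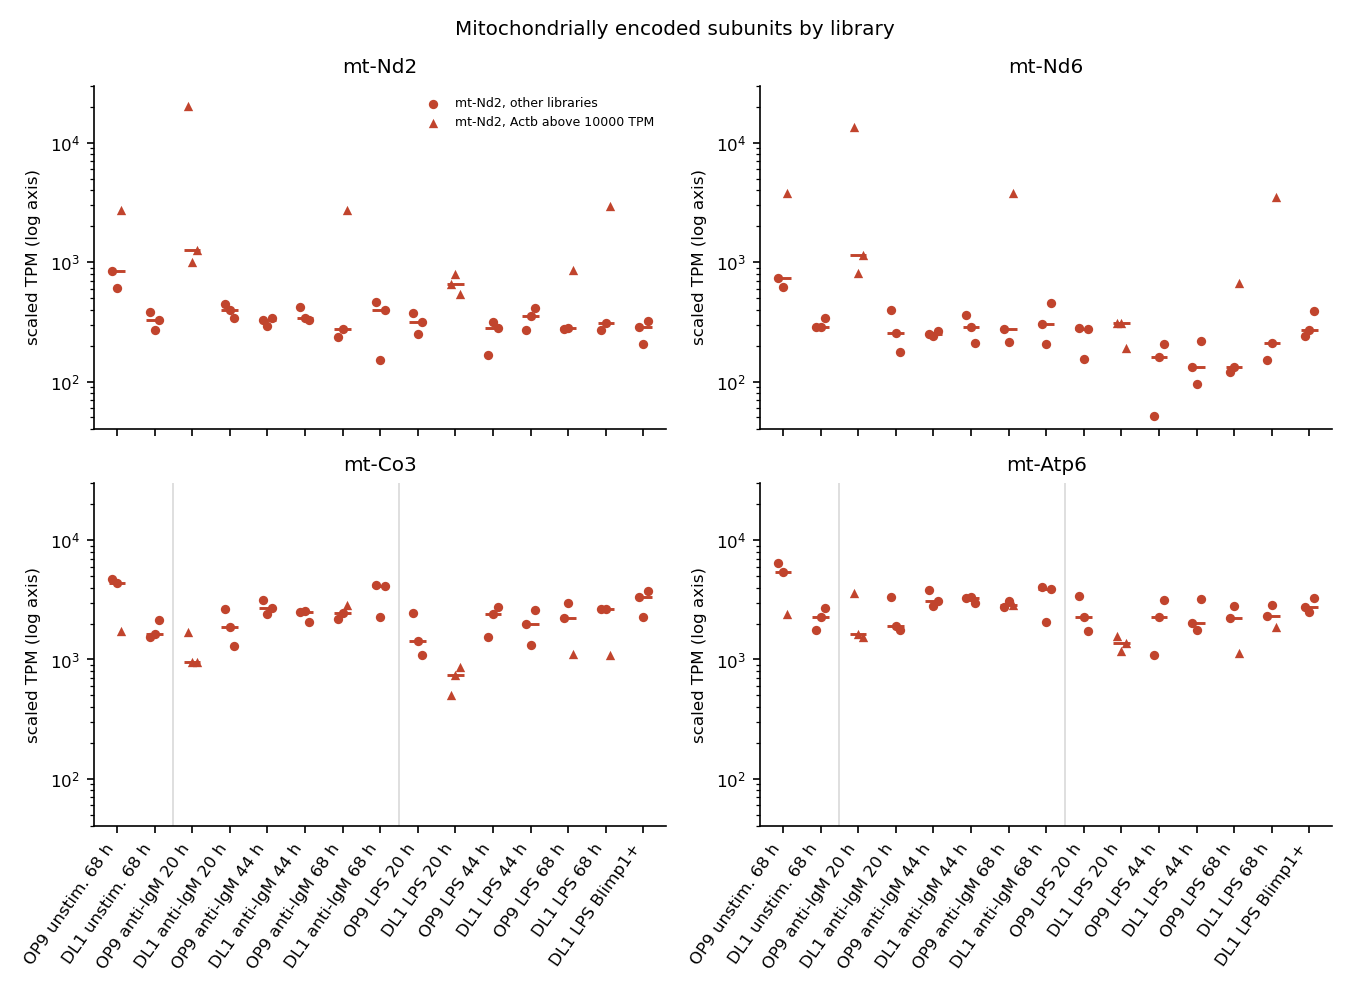
Scaled TPM of mt-Nd2, mt-Nd6, mt-Co3 and mt-Atp6 in each library by group on a log axis; triangles are the 10 libraries with Actb above 10000 TPM. Triangles reach 20360 for mt-Nd2 and 13470 for mt-Nd6, and for mt-Co3 they lie between 508 and 2880. Bars are medians.

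Other genes of the pathway, from lists chosen with earlier results known, were counted in the same model. With anti-IgM against no stimulus on DL1, 8 of 18 electron carriers and adenine nucleotide carriers rose, where 6.07% of all genes rose, among them Ucp2, an inner membrane carrier (236.1 against 62.13 scaled TPM, log2 fold change 1.96), Slc25a4, an ADP/ATP carrier (269.2 against 93.03, 1.52), and Coq7, of ubiquinone synthesis (81.72 against 33.87, 1.28). Of 17 TCA cycle genes 4 rose, with Fh1, fumarase, at 146.2 against 65.92 (1.13). Of 31 assembly factors of complexes II to V 3 rose and of 13 for complex I 1 rose, shares near that of all genes, none fell, and of 14 genes that copy or transcribe mitochondrial DNA limma called none. Of 16 genes of mitochondrial RNA processing Slirp rose and Trmt10c fell. The regulators gave 1 call of 13, a fall of Ppargc1a, which was at 0.04095 against 1.246 and so near 0 in both groups.

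With anti-IgM at 68 h Cycs, cytochrome c, was at 169.7 ± 11.67 (SD, n = 3) scaled TPM on DL1 and 82.94 ± 22.4 on OP9 (log2 fold change 1.05, limma adjusted p 0.0245), and at 44 h at 273.2 ± 24.97 and 121.3 ± 15.42 (1.17, adjusted p 0.0134). At 68 h Cycs was the only rise in these pathway lists, 1 of 18 carriers, where 1.11% of all genes rose. In the other lists 1 of 13 regulators fell and no further gene was called. At 44 h Ndufaf4, an assembly factor of complex I, Slc25a5, an ADP/ATP carrier, and Top1mt, the mitochondrial topoisomerase, rose too. With Cycs these are 1 of 13 complex I assembly factors, 2 of 18 carriers and 1 of 14 mitochondrial DNA genes. The other lists gave no call there, and 0.538% of all genes rose. LPS against anti-IgM on OP9 at 44 h raised 5 of 18 carriers, 5 of 17 TCA cycle genes, 3 of 13 complex I assembly factors, 3 of 31 other assembly factors and 3 of 16 genes of mitochondrial RNA processing, and lowered none of these, where 4.9% of all genes rose. Cycs was at 405.3 ± 77.77 there. In Blimp1+ cells against DL1 cells with LPS at 44 h the counts were mostly falls, where 5.03% of all genes fell. Of 18 carriers 7 fell and 1 rose. Of 16 genes of mitochondrial RNA processing 6 fell, among them Lrpprc, which stabilises mt- mRNA, at 15.86 against 36.91. Of 17 TCA cycle genes 5 fell, and of 13 complex I assembly factors 3 fell and 1 rose. The time of the Blimp1+ sort is not given, and these lists were not set against the 68 h culture. In the comparison with 44 h the mt- genes gave no call in the model of all 45 libraries. Without the libraries of high Actb, none of which is in these 2 groups, 3 of 12 were called higher. These were mt-Co1 (log2 fold change 0.84, limma adjusted p 0.00493), mt-Nd5 (0.67, adjusted p 0.0499) and mt-Nd6 (1.05, adjusted p 0.0479). In that fit 24.5% of all genes were called, so the share of mt- genes called was near the background.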

How the data were processed

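PolyA RNA of sorted cells was made into SMART-seq and Nextera XT libraries, per the labels' protocols. TPM per gene symbol were computed by the authors and deposited in 1 table, and their other deposited table is in log2 (by its spacing, log2 of an estimated count plus 0.5 per 1e+06). Kallisto, limma and the builds GRCm38 and mm10 are named in the submitters' processing notes, with no version. Both HiSeq and NextSeq are named in the series' text, and the instrument of each library is not given in the sources used here. The TPM listed per library add up to 92.1% to 96% of 1e+06.

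TPM were divided by median-ratio size factors (0.442 to 1.43), and log2(value + 1) of genes with at least 1 TPM in at least 3 libraries was fitted in 1 model of 15 group means (limma 3.58.1 in R 4.3.3, with trend and robust moderation). Adjusted p-values are Benjamini-Hochberg over the 15614 genes of a comparison. The script was tested on simulated data. The 18 comparisons were joined by 2 differences of effects at 68 h added after seeing the data.

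Members and lists were chosen with earlier results of these data known. Named were all mt- genes, paralogous isoforms, the highest and lowest of each complex, the 4 most and 4 least variable, and up to 6 rises and 6 falls per comparison among called genes whose groups did not overlap, with up to 3 called genes per list. A gene that this rule names is not reported here. A few further members are shown for contrast, chosen after their values were seen (Sdha and Ndufa12 at 44 h). Other settings were quantile normalization, no scaling (TPM as deposited), a pseudocount of 0.1, the authors' log2 table, no filter, a replicate block, fits of the compared groups alone, the 68 h reference for Blimp1+ cells, each library left out, and a fit without the 10 libraries of high Actb, which an earlier analysis of these data had found to stand apart. Same-numbered replicates deviated together (every pair's correlation above 0.1) in 3 of 17 comparisons: DL1 against OP9 with LPS at 68 h, and both stimuli against none on OP9. In each of these, replicate 3 is the 1 library of high Actb in both groups. Its part in the correlations was not tested, so they do not show that replicate numbers mark a shared animal or batch.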

Additional observations from a re-analysis of the deposited data

Results flagged for a closer look

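The effect of the DL1 culture at 68 h differed between anti-IgM and no stimulus in 48 nuclear members, by a test of that difference in the limma model, where 15.6% of all genes were called. All 48 were higher with anti-IgM, with a nuclear median of 1.59, and no mt- gene was called (3 at an unadjusted p under 0.05). The largest differences on the log2 scale were those of Cox6c (3.14, limma adjusted p 0.000473), Atp5e (3.13, adjusted p 0.000245), Atp5k (3.08, adjusted p 0.00174), Ndufb2 (3.05, adjusted p 0.000276), Atp5j2 (2.70, adjusted p 0.00191) and Cox8a (2.58, adjusted p 0.000173). For Atp5k, a small membrane subunit of complex V, the 4 groups were at 503.7, 534.4 and 577.4 scaled TPM (DL1, anti-IgM), 127.6, 91.05 and 346.3 (OP9, anti-IgM), 128, 178.1 and 216.1 (DL1, no stimulus) and 419.1, 396.1 and 475.5 (OP9, no stimulus). In the same difference 12 of 12 tested stroma markers were higher and 5 of 8 B cell markers lower; the unstimulated OP9 group is the one that holds the stroma markers. Their part in the result was not tested. Without the libraries of high Actb 60 nuclear and 8 mt- genes were called higher, against 36.1% of all genes.

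The DL1 effect at 68 h also differed between LPS and anti-IgM in 1 member, Cox6b1 (-2.32 on the log2 scale, limma adjusted p 0.0359), where 0.199% of all genes were called. Its level at 68 h was 336.1 to 457.5 scaled TPM on DL1 and 602 to 807.7 on OP9 with LPS, and 748.9 to 798.1 on DL1 and 215.1 to 374.3 on OP9 with anti-IgM. The call was lost without any of the libraries but OP9 with anti-IgM, replicate 3 (adjusted p of 0.0597 to 0.0906 in the others). No stroma or B cell marker was called in that difference.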

How the results depend on the processing

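Counts of members called in each comparison are given here against the other settings, and the causes were not tested. Shares of all genes called stand beside the fits of the compared groups and those without high Actb. They are not given for the other settings, whose counts therefore have no background. With TPM as deposited they were 13 of 32 (DL1 against OP9 without stimulus), 5 of 8 (LPS, 20 h), 32 against 13 (anti-IgM, 68 h), 4 of 18 and 17 of 36 (LPS and anti-IgM against none on DL1), 5 of 20 (LPS against anti-IgM on OP9), 2 against 1 (44 against 20 h with LPS) and 9 against 1 (the LPS minus anti-IgM difference at 68 h). The authors' log2 table gave, in the same order, 7, 4, 27, 3, 19 and 4, with 5 for that difference, 0 for LPS at 68 h, 19 for anti-IgM at 20 h and 8 for Blimp1+ cells. Quantile normalization gave 5 for LPS at 20 h, 6 and 19 on DL1, 7 and 5 for LPS against anti-IgM on OP9 and DL1, and 2 for 44 against 20 h. A pseudocount of 0.1 gave 0 for LPS at 68 h and for 44 against 20 h, and no filter gave 6 for anti-IgM at 20 h and 0 for the LPS minus anti-IgM difference at 68 h.

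Fits of only the groups compared gave 13 (unstimulated), 0, 1 and 0 (LPS at 20, 44 and 68 h), 4, 56 and 0 (anti-IgM at 20, 44 and 68 h), 7 and 0 (LPS and anti-IgM against none on OP9), 3 and 61 (on DL1), 47 and 32 (LPS against anti-IgM on OP9 and DL1), 0, 1 and 6 (the 3 time comparisons), 40 (Blimp1+), 7 (the difference at 44 h), and 20 and 3 (the differences at 68 h). The shares of all genes called were, in the same order, 7.07%, then 1.29%, 0.833% and 0%, then 5.4%, 16% and 0%. Against no stimulus they were 10% and 1.89% on OP9 and 2% and 24.2% on DL1. For LPS against anti-IgM they were 32% and 15.6%, and between times 0.0064%, 0.98% and 7.44%. Blimp1+ cells had 33.7%, and the differences 8.01%, 3.31% and 0.16%. Without the libraries of high Actb the counts were 58 (unstimulated), 9 and 47 (anti-IgM at 44 and 68 h), 57 (anti-IgM against none on OP9), 56 (on DL1), 33 and 10 (LPS against anti-IgM), 3 and 1 (44 against 20 h with LPS, 68 against 44 h with anti-IgM), 28 (Blimp1+) and 6 (LPS minus anti-IgM at 68 h). Of all genes, in that order, 41.8%, 5.96% and 5.87%, 39%, 26.4%, 19.7% and 8.7%, 9.06% and 3.44%, 24.5% and 0.653% were called. With the 68 h culture as reference Blimp1+ cells gave 2, and Cox6a2 (-0.42), Uqcr11 (0.23), Atp5g1 (0.40) and Sdhd (0.064) reversed.

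Leaving out 1 library gave 8 to 43 calls without stimulus, 3 to 22, 0 to 0 and 0 to 1 with LPS at 20, 44 and 68 h, 2 to 17, 0 to 0 and 1 to 26 with anti-IgM, 15 to 22 and 8 to 44 for LPS and anti-IgM against none on OP9, 3 to 14 and 20 to 32 on DL1, 7 to 15 and 1 to 2 for LPS against anti-IgM, 1 to 3 for 44 against 20 h with LPS, 8 to 11 for Blimp1+ cells, and 38 to 56 and 0 to 7 for the differences at 68 h. The highest at LPS 20 h, 22, was without OP9 replicate 3. The replicate block, with same-numbered libraries paired, kept every count within 1.5 times of its value without it. The median of all genes moved from -0.19 to 0.15 (TPM as deposited) and to 0.29 (authors' table) in the unstimulated comparison. Depth is known only as an estimate from the authors' table, and TPM carry no counting interval.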
